A study of Mus musculus with 6 samples.

Results

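The H2 complex is the major histocompatibility complex of the mouse, the set of genes whose proteins show peptides to T cells. Chromatin accessibility at these genes was read from a table of windows, each of which reaches 1000 bases up and down from all the transcript starts annotated for a gene. Members were every window whose gene symbol begins with H2- and the windows of 7 genes that assemble, load or switch on the same molecules, B2m, Tap1, Tap2, Tapbp, Ciita, Nlrc5 and Cd74. They numbered 51 of the 49366 windows in the table. Of the 44 H2 genes, 31 were class I genes, 12 were class II genes and 1, H2-Ke6, belonged to neither class. The other genes were counted as 5 partners of class I (B2m, Tap1, Tap2, Tapbp, Nlrc5) and 2 partners of class II (Ciita and Cd74). The H2 genes lay on chromosome 17, as did Tap1, Tap2 and Tapbp, which brought the members on that chromosome to 47.

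ATAC-seq, in which a transposase inserts sequencing adapters into open chromatin, was performed on nuclei sorted for PCM1, a protein that surrounds the nuclei of muscle fibres. Male C57BL/6J mice received AAV6 vectors in the gastrocnemius and tibialis anterior muscles at 8 weeks of age, and muscles were taken 28 days later. The Yap-shRNA group carried AAV6:Yap-shRNA, a hairpin RNA against Yap, and the LacZ-shRNA group carried AAV6:LacZ-shRNA, a hairpin against a bacterial gene that served as the control, in the muscles of the opposite limb. Each of the 3 replicates per group pooled 4 gastrocnemius and 4 tibialis anterior muscles, so a replicate is an average over several muscles, and both groups had been injected and carried a viral vector.

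Class I molecules sit on nearly every cell, where a heavy chain such as H2-K1 or H2-D1 pairs with the light chain B2m and shows peptides from inside the cell. These peptides are cut by the proteasome, pumped into the endoplasmic reticulum by Tap1 and Tap2, and loaded with the help of Tapbp (tapasin), while Nlrc5 is the transactivator of the class I genes. Class II molecules, made of an alpha and a beta chain such as H2-Aa and H2-Ab1, show peptides from outside the cell and are made mainly by dendritic cells, macrophages and B cells, with Cd74 as the invariant chain that guards their groove and Ciita as their transactivator. Interferon gamma raises both sets, and muscle fibres at rest carry little class I and hardly any class II protein.

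The bases before the start of transcription hold the elements through which these factors act, and they are shown here because the windows surround the annotated starts of each gene. The sequences are the 250 bases upstream of a RefSeq transcript start in the assembly GRCm38.p6, written 5′ to 3′ on the strand of the gene. Capitals mark exact matches, on either strand, to 4 short strings that stand for known elements: CTGATTGG for the Y box that NF-Y binds, AGNNACNGA for the X1 box that the RFX complex binds, GAAANNGAA for an interferon-stimulated response element (ISRE), and GGGGATTCC for the kappa B element that NF-kB binds.
H2-K1 (chr17:34000334-34000583, minus strand): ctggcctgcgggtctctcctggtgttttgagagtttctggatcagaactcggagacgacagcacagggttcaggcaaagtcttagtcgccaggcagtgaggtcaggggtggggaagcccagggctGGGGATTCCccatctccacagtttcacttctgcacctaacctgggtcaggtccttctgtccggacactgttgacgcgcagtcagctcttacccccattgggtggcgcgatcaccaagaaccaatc
H2-D1 (chr17:35262844-35263093, plus strand): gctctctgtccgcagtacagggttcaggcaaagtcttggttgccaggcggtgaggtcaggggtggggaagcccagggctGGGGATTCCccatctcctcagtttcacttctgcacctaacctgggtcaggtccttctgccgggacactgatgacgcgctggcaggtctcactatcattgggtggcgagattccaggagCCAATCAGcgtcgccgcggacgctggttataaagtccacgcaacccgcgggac
B2m (chr2:122147437-122147686, plus strand): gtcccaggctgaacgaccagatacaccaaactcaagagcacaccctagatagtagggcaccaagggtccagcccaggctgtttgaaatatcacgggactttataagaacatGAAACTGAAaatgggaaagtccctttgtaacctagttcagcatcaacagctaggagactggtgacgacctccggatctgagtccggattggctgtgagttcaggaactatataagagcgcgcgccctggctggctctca
Tap1 (chr17:34187306-34187555, plus strand): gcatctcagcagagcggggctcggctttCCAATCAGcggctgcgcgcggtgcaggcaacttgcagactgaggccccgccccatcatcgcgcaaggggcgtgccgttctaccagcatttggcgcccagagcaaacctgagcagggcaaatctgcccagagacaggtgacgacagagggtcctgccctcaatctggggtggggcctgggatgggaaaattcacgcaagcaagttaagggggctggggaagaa
H2-Aa (chr17:34287824-34288073, minus strand): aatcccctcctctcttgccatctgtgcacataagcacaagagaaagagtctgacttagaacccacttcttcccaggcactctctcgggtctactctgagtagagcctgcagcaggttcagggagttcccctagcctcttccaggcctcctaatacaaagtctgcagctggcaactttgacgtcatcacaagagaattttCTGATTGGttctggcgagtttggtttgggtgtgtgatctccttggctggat
H2-Eb1 (chr17:34305617-34305866, plus strand): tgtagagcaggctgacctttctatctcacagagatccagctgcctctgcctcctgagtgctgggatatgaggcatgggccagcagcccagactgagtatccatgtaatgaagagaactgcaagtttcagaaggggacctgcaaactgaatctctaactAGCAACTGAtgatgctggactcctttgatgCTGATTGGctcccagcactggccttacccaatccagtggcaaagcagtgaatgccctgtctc
The class I heavy chain genes H2-K1 and H2-D1 shared the kappa B string, B2m held an ISRE string 139 bases before its start, and the class II genes H2-Aa and H2-Eb1 held the Y box 51 and 62 bases before theirs. The Y box of H2-K1 ran across its start and so is not in the stretch printed. Of the 51 members, 34 had a RefSeq promoter of 300 bases, 250 before and 50 after the start. The kappa B string stood in 5 of 24 class I promoters (20.8%), at H2-K1, H2-D1, H2-Q6 and H2-Q7, in 0 of 9 class II promoters, and in 0.25% of all 32851 promoters. The Y box stood in 15 of 24 class I promoters (62.5%) and in 4 of 9 class II promoters (44.4%), against 4.1% of all. The 24 class I promoters came from 22 genes, and H2-K1 was counted at 2 starts. By gene, the kappa B string was at 4 of 22 (18.2%, against 0.296% of all genes). The Y box was at 13 of 22 (59.1%, against 4.7%). The X1 string was found in 5 of 9 class II promoters (55.6%), 8 of 24 class I promoters (33.3%) and 17.7% of all, and the ISRE string in 8.33% of class I promoters and 8.56% of all. These ISRE shares hold for the exact string only. Similar letters with another spacing, such as the tttcacttc after the kappa B string of H2-K1 and H2-D1, were not counted or marked. ACATTCC, a string bound by the TEAD partners of Yap, occurred in 3.85% of all promoters and in none of the 34 member genes' promoters. These are matches of letters only.

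Between 3326803 and 10319467 counts fell in the windows of a library, and the LacZ-shRNA libraries had the 2 lowest totals. LacZ-shRNA replicate 1 stood apart in its background: the median level of 1055 windows of olfactory receptor genes without a peak, which muscle does not use, was 4.25 CPM per kb there and 2.72 to 3.16 in the other libraries. These windows had a median log2 fold change of -0.14, and the part of background and depth in the results below was not tested. Windows of muscle fibre markers had a median level of 26.8 CPM per kb, whereas those of leukocyte markers had 5.80, and 1 of 15 leukocyte markers had a peak. The Yap1 window had a log2 fold change of 0.04 ± 0.18 (SE, adjusted p = 0.990 by edgeR), which says nothing about the knockdown, since a hairpin acts on the messenger RNA.

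The first comparison set class I beside class II by level, that is, by mean accessibility over their windows. A window joins all annotated starts of a gene, so it spanned 7293 bases at H2-Ab1 with 7 starts and 2001 at H2-M3 with 1. Levels are thus averages over windows of unlike length and do not rank the main starts alone. Levels are library-scaled counts (CPM, with factors from the trimmed mean of M values) divided by the length in kb that a window shares with no other gene. Both class medians lay above those of closed genes and of all windows, and below that of windows with a peak. The median over the class was 6.22 CPM per kb for class I and 5.93 for class II, compared with 4.91 over all windows, 8.09 over windows with a peak and 3.14 over olfactory receptor windows. In the LacZ-shRNA replicates the class I median was 7.18, 6.25 and 5.76, and in the Yap-shRNA replicates it was 5.80, 6.12 and 6.20. For class II the medians were 5.89, 6.50 and 5.61 with LacZ-shRNA and 5.94, 6.03 and 6.78 with Yap-shRNA. Neither class stood above the other beyond the spread between libraries, whose within-group SD was 0.53 for class I and 0.46 for class II. Above 5.26, the level under which 95% of olfactory receptor windows fell, lay 24 of 31 class I and 10 of 12 class II windows. Many other windows lay above it too: H2-M10.1, at 5.39, stood at percentile 57.57 of all windows.

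Within class I the genes spread over a wide range. The highest levels were at H2-K2, an annotated pseudogene (15.6 ± 2.25 CPM per kb, SD, n = 6), and at the Qa genes H2-Q6 (11.6 ± 1.17) and H2-Q7 (10.45 ± 0.563). The last 2 must be read with caution, because 54.5% and 45.55% of the 75-base words in their windows occurred once in the genome, and in the rest of these windows reads may not be placed uniquely. This share was under 90% in 5 class I windows, among them H2-Q5 (58.35%) and H2-T23 (70.68%). The same caution holds for the later values of these genes. H2-K1, a classical heavy chain that is found on most cells, followed at 10.1 ± 1.203, and H2-D1, the other classical heavy chain, was at 8.35 ± 1.94. At the bottom were H2-M5 (4.715 ± 0.821), H2-M10.3 (4.26 ± 0.402), of a family known from the vomeronasal organ, and H2-M9 (3.89 ± 1.04), all inside the range of closed olfactory receptor windows. From H2-Q3 (8.52) down to H2-M9 (3.89) the order was not resolved, nor was that of H2-Q7 and H2-K1. Neighbouring genes there differed by less than the larger of their SDs.

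Class II was more even. H2-DMa, a subunit of the peptide editor DM, had the highest level at 13.2 ± 1.24 CPM per kb, but its window runs into the start of Brd2, a broadly used gene, and 48.3% of it was unshared. The classical beta chains H2-Eb1 (7.34 ± 0.749) and H2-Ab1 (6.78 ± 0.806) came next. Of the H2-Eb1 window 43.4% was unshared (1802 of 4152 bases), and its place depends on dividing by the unshared length alone. H2-Oa (5.745 ± 0.658) and H2-Ob (5.08 ± 0.426), the chains of the DM inhibitor DO, and H2-Eb2 (4.62 ± 0.884) were lowest. Below H2-DMa, neighbouring genes other than H2-Oa and H2-Ob differed by less than the larger of their SDs, so their order was not resolved. Of the 31 class I windows 7 held a peak, at H2-K1, H2-D1, H2-K2, H2-M3, H2-Q2, H2-Q5 and H2-Q7, and among 12 class II windows H2-DMa alone did. Among all 49366 windows 13000 held one, and the difference between the classes was not tested. All 5 class I partners had a peak and neither class II partner did, although Cd74 (7.81 ± 1.41 CPM per kb) and Ciita (6.36 ± 0.215) lay above the closed windows. H2-Ke6, which encodes a steroid dehydrogenase and only carries the name, was highest of the members at 18.1 ± 2.34. Its window was 74.45% unshared, and this rank too holds for levels per unshared length only.

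**Figure D1:**
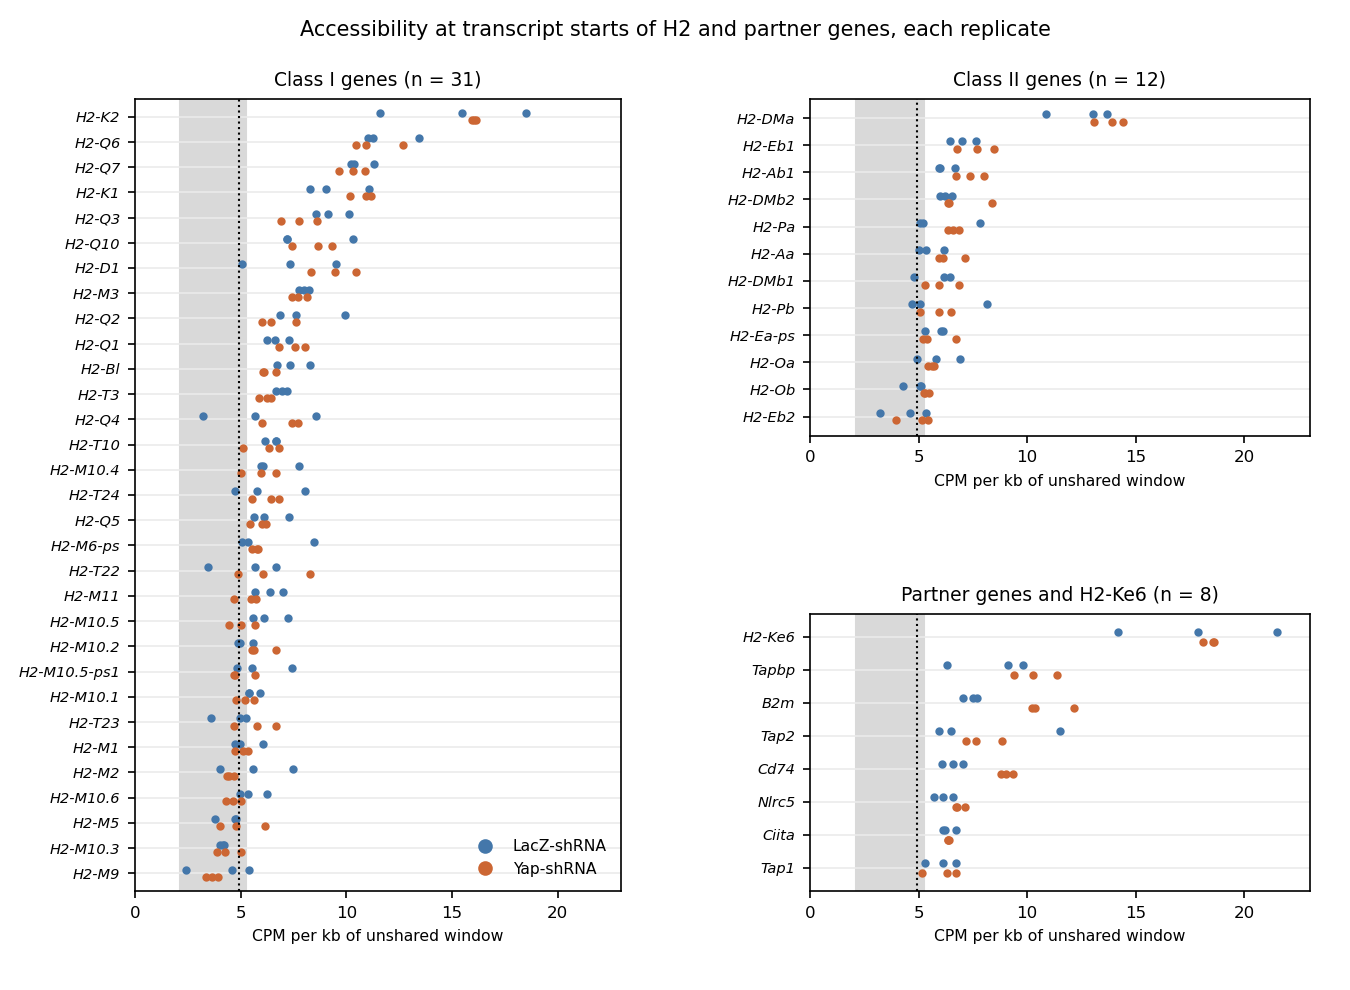
Level of each window in CPM per kb of unshared length, 1 point per replicate, with class I, class II and the other members in separate panels. The grey band spans the 5th to 95th percentile of olfactory receptor windows without a peak and the dotted line is the median of all windows. H2-K2, H2-Q6, H2-Q7, H2-K1, H2-DMa and H2-Ke6 lie well to the right of the band, and most M and M10 genes near its edge.

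Peaks were unevenly spread over the complex on chromosome 17. From H2-K2 to H2-M2 (chr17:33974659-37483552, GRCm38) lay 88 peaks, or 2.51 per 100 kb, above the 1.498 of the whole chromosome and the 1.32 of all chromosomes. Only 12 of the 88 touched member windows, so this density is one of the region and not of the H2 genes. The class II cluster, which also houses Tap1, Tap2 and the proteasome genes Psmb8 and Psmb9, held 9 peaks in 270.9 kb (3.32 per 100 kb), of which 4 touched member windows. The stretch with H2-D1 and the Q genes held 5 peaks (2.36 per 100 kb). By contrast 1 peak lay in the T cluster (0.542 per 100 kb) and 13 in the M cluster (1.08 per 100 kb), where most class Ib genes stand.

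The second comparison asked whether knockdown of Yap altered accessibility at these genes. Over the windows no member passed. With edgeR's quasi-likelihood test over all 49366 windows 11 were called (0.0223%), and 0 of the 51 members were among them, the lowest adjusted p of a member being 0.946. The likelihood-ratio test of edgeR and voom also called 0, as did DESeq2, which gave an adjusted p to 18 of the 51. B2m and Cd74 were not among these 18. Without adjustment, 2 members had a p under 0.05 with higher values in Yap-shRNA muscles, B2m and Cd74, and 0 with lower values, where 1.9% of all windows were on the first list and 3.01% on the second. In 5 members, H2-Ob, H2-Ab1, Cd74, B2m and Nlrc5, every Yap-shRNA replicate lay above every LacZ-shRNA replicate, as in 5.31% of all windows, and in 2, H2-Bl and H2-T3, every one lay below, as in 4.79% of all.

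B2m, the light chain common to all class I molecules, had the smallest p of the members. Its window held 15.4, 14.1 and 15.04 CPM with LacZ-shRNA and 20.8, 20.5 and 24.3 CPM with Yap-shRNA. The groups did not overlap, and the log2 fold change was 0.55 ± 0.16 (SE) with an unadjusted p of 0.00149 and an adjusted p of 0.946. Cd74, the class II invariant chain, held 13.6, 12.5 and 14.5 CPM with LacZ-shRNA and 18.1, 19.3 and 18.5 CPM with Yap-shRNA. Its groups were also apart, with a log2 fold change of 0.45 ± 0.16 and an adjusted p of 0.946, in a window without a peak.

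The classical heavy chains pointed the same way as B2m without passing. The H2-D1 window had 33.3, 23.1 and 43.2 CPM with LacZ-shRNA and 37.8, 43.0 and 47.5 CPM with Yap-shRNA, with 1 control replicate inside the range of the other group (log2 fold change 0.31 ± 0.16, unadjusted p = 0.0505 by edgeR). H2-K1 had 47.0, 62.8 and 51.3 against 57.7, 62.0 and 63.5 CPM (0.20 ± 0.14), and these groups overlapped too. Among the loading genes, Tapbp differed by 0.29 ± 0.15, Tap2 by 0.07 ± 0.18 and Tap1 by -0.01 ± 0.15, and the transactivator Nlrc5 by 0.17 ± 0.13. Of the windows of Tapbp, Tap2 and Tap1, 40.36%, 43.52% and 68.9% were unshared. The peaks at Tapbp differed by 0.00 ± 0.13 and 0.08 ± 0.15, less than its window.

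As a class, the class I windows were balanced around 0. In 12 of 31 the estimate was above 0 and in 19 below, with a median log2 fold change of -0.05 (0.0084 when scaled by library size alone) and a range of -0.31 to 0.34, where the median of all windows was -0.01 and 47.3% of them were above 0. Besides H2-D1 and H2-K1, H2-T23, the Qa-1 molecule that shows leader peptides to natural killer cells, had the smallest p above 0 (0.30 ± 0.19). The smallest p below 0 were at H2-Q2 (-0.26 ± 0.15), the pseudogene H2-Q3 (-0.27 ± 0.16), H2-M10.5 (-0.30 ± 0.19) and H2-Bl (-0.23 ± 0.14). The M10 genes had 2 of 7 estimates above 0 and a median of -0.16, close to the -0.14 of the closed olfactory receptor windows, and the other M genes had 1 of 7 above 0.

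Class II showed another balance. Of its 12 windows 10 had an estimate above 0, and the median was 0.13 (0.06 without Yap-shRNA replicate 3) with a range from -0.04 to 0.24, yet 0 had an unadjusted p under 0.05. H2-Ab1, the I-A beta chain, had 43.4, 43.6 and 48.5 CPM with LacZ-shRNA and 48.9, 53.7 and 58.5 CPM with Yap-shRNA, a log2 fold change of 0.24 ± 0.13 with the groups just apart. Its partner chain H2-Aa differed by 0.22 ± 0.18, H2-Eb1 by 0.13 ± 0.18, and H2-Ea-ps, the defective E alpha gene of this strain, by -0.04 ± 0.18. Ciita differed by 0.01 ± 0.13. The medians of the classes were 0.18 apart on the log2 scale, but the genes of a cluster are not replicates and no test of this gap was made. The within-group SD of the class median between libraries was 0.04 for class I and 0.10 for class II.

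**Figure D2:**
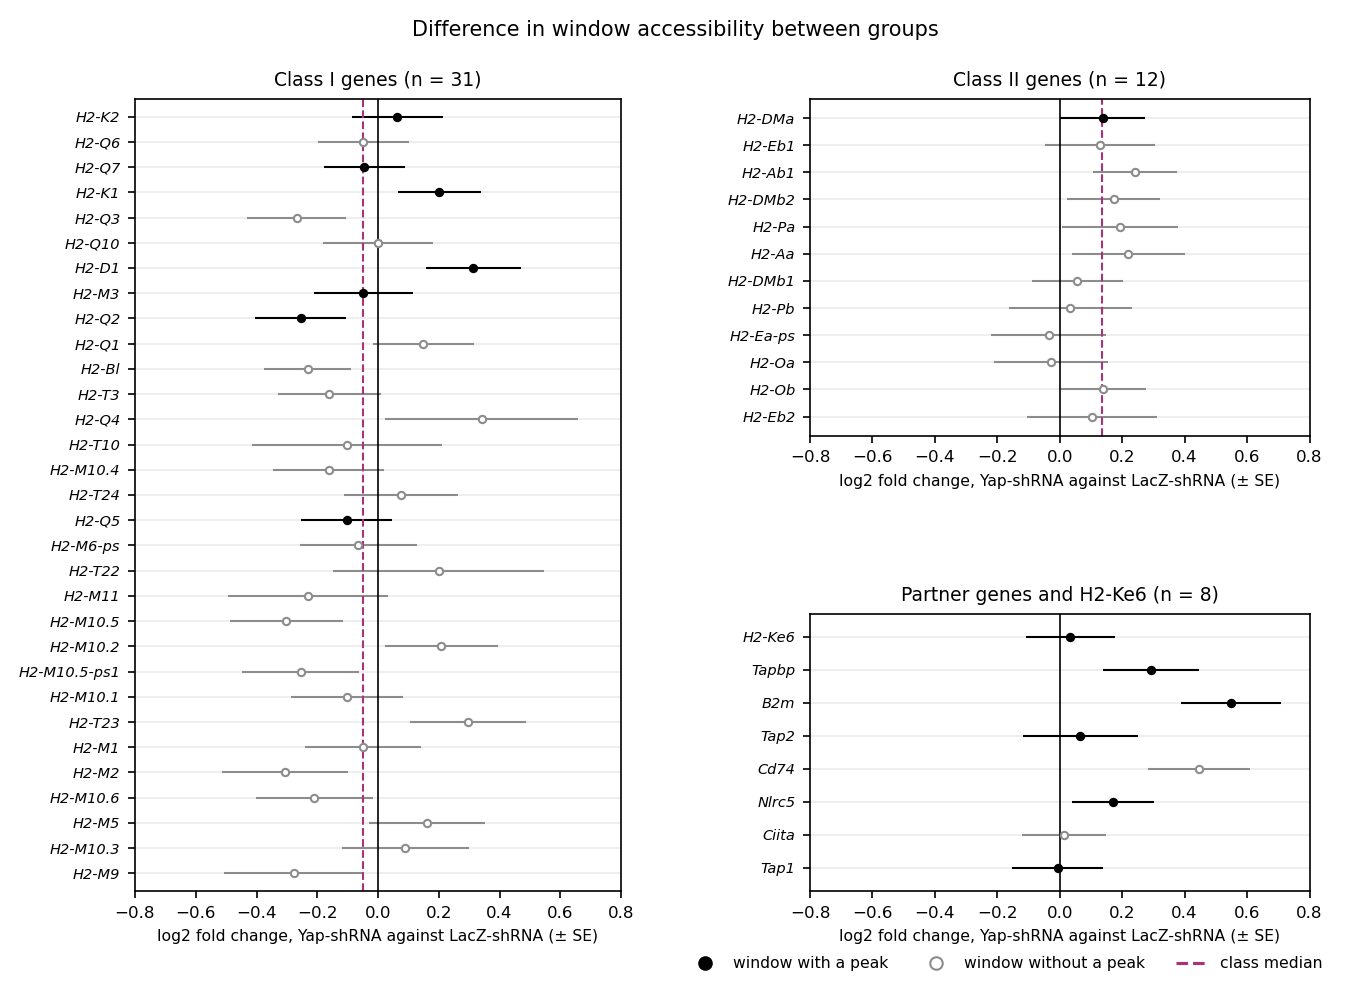
Log2 fold change of each window, Yap-shRNA against LacZ-shRNA (n = 3 per group), with its SE, in the same gene order as the plot of levels. Filled points are windows with a peak and the dashed line is the class median, which lies at -0.05 for class I and 0.13 for class II. B2m and Cd74 are farthest to the right.

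Peaks, which cover the open stretch alone, were counted separately. The 36097 peaks included 16 that touched the windows of 14 members. By edgeR's quasi-likelihood test 223 peaks were called (0.618%), 17 higher and 206 lower with Yap-shRNA, and 1 of the 16 was among them. At an unadjusted p under 0.05 stood 5 of the 16, all higher with Yap-shRNA, against 3.59% of all peaks, and 0 were lower, against 5.31% of all. In 4 of the 16 every Yap-shRNA replicate exceeded every LacZ-shRNA replicate (6.55% of all peaks) and in 0 the reverse held (6.76% of all). Estimates were above 0 in 13 of the 16, with a median log2 fold change of 0.11, whereas over all peaks 17883 were above and 18214 below with a median of -0.0026. The 16 were taken at transcript starts, whereas the full set includes peaks away from starts, so these sets are unlike. Among windows, 53.1% of those with a peak had estimates above 0, against 45.3% of those without. No shares for peaks at starts alone are given. Scaling by library size alone moved the median of all peaks to 0.14, so the values here are relative to the bulk of peaks.

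The called peak lay between Tap1, a subunit of the peptide pump, and Psmb9, the immunoproteasome subunit that cuts peptides for it, 2 genes that are transcribed away from each other. It spanned chr17:34186513-34188251 (GRCm38) and covered the starts and coding exons of both, so it cannot be given to either. With LacZ-shRNA it contained 27.7, 22.1 and 30.6 CPM, and with Yap-shRNA 34.1, 43.2 and 48.0 CPM. The groups did not overlap, and the peak rose with a log2 fold change of 0.60 ± 0.14 (SE) and an adjusted p of 0.0335 by edgeR. The call was not firm. The estimate stayed between 0.48 and 0.74 under 14 alternatives, but the adjusted p ran from 0.00405 to 0.313 and stayed under 0.05 in 6 of them. It was 0.0973 with DESeq2 and 0.0592 with voom, and it became 0.0813 without LacZ-shRNA replicate 1, 0.161 without LacZ-shRNA replicate 2, 0.168 without Yap-shRNA replicate 2 and 0.313 without Yap-shRNA replicate 3.

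The windows of these genes did not show the rise at Tap1. Of the 1739 bases of the peak, 1699 fell where the windows of Tap1 and Psmb9 overlap. The default of the counting program leaves out fragments in 2 windows, but whether it was used for these windows is not stated. The Tap1 window, at 26.1, 30.1 and 33.0 against 25.4, 31.0 and 32.9 CPM, also covers starts farther downstream. In Psmb9, of whose window 53.2% was unshared, the values were 12.1, 15.1 and 16.8 against 16.4, 18.1 and 21.9 CPM (0.34 ± 0.17). Over all genes, windows that overlap another window held the counts of their peaks in 49.2% of 3964 cases, against 99.98% of 5736 windows that stand alone. The part of this overlap in the gap between the Tap1 peak and window was not tested.

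**Figure D3:**
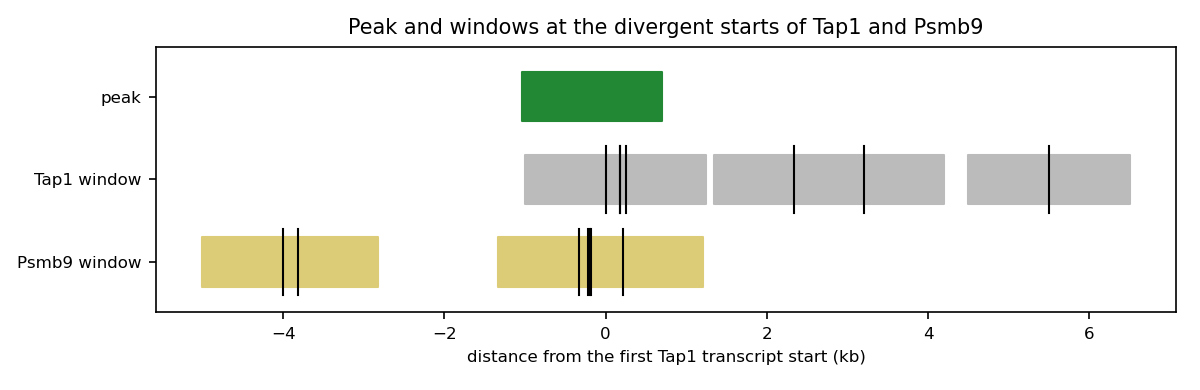
Extent of the called peak and of the windows of Tap1 and Psmb9, in kb from the first Tap1 start. Black ticks are annotated transcript starts, and nearly the whole peak lies where both windows overlap.

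B2m had the next smallest p among the 16. Its peak (chr2:122147285-122148177), which holds the start and the ISRE string of the sequence above, contained 16.4, 14.4 and 14.3 CPM with LacZ-shRNA and 22.02, 22.23 and 24.15 CPM with Yap-shRNA. The groups were well apart and the log2 fold change was 0.60 ± 0.16, but the adjusted p was 0.0815 by edgeR, and it passed only with the likelihood-ratio test (0.0407) and with library size alone (0.0179). The fragments are largely those of the B2m window, so this is the same observation read over fewer bases.

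The peaks of the heavy chains followed. At H2-D1 (chr17:35262331-35264577) the values were 31.5, 22.9 and 41.5 CPM with LacZ-shRNA and 37.1, 47.1 and 50.9 CPM with Yap-shRNA, with LacZ-shRNA replicate 3 inside the range of the other group (0.42 ± 0.15, adjusted p = 0.276 by edgeR, and 0.0212 without that replicate). At H2-K1 (chr17:33998759-34001174) they were 41.1, 48.8 and 44.2 against 52.5, 59.8 and 53.4 CPM, which did not overlap (0.32 ± 0.12, adjusted p = 0.375 by edgeR). Each of these peaks contains matches to the kappa B string, the Y box, the X1 string and the ISRE string.

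Nlrc5, the class I transactivator, was the last with an unadjusted p under 0.05. Its peak (chr8:94433869-94434690) also covers the start of 9330175E14Rik on the other strand and lies wholly where the 2 windows overlap. It held 13.4, 12.3 and 12.7 CPM with LacZ-shRNA and 16.7, 15.4 and 18.7 CPM with Yap-shRNA, apart but not called (0.40 ± 0.18, adjusted p = 0.499 by edgeR). Of the 5 peaks with an unadjusted p under 0.05, those at B2m, H2-D1 and H2-K1 covered the start of 1 gene each, whereas those at Tap1 and Nlrc5 covered the starts of 2 genes and cannot be given to either. The 6 peaks at class I partners all had estimates above 0, with a median of 0.26, and the 7 at class I genes had 5 above 0 with a median of 0.06.

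The remaining peaks overlapped between groups. The 3 with estimates below 0 were the peak that H2-DMa shares with Brd2 (-0.08 ± 0.15), where replicates ranged from 267.0 to 316.4 CPM, H2-M3, which shows formylated peptides (-0.08 ± 0.21), and H2-Q2 (-0.06 ± 0.22). A peak inside H2-DMa differed by 0.16 ± 0.12, H2-K2 by 0.15 ± 0.13, the stretch before Tap2 by 0.13 ± 0.16 and H2-Q7 by 0.00 ± 0.13. Tapbp had 2 peaks, at 0.00 ± 0.13 and 0.08 ± 0.15. In letters, 7 of the 16 peaks (43.8%) contained the kappa B string compared with 0.814% of all peaks on chromosomes. The ISRE string was in 9 (56.2% against 17.1%), the Y box in 6 (37.5% against 4.56%) and the X1 string in 11 (68.8% against 45.2%). The TEAD string was in 1 (6.25% against 8.96%). Member peaks were longer, however, with a median of 1334.5 against 902 bases.

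**Figure D4:**
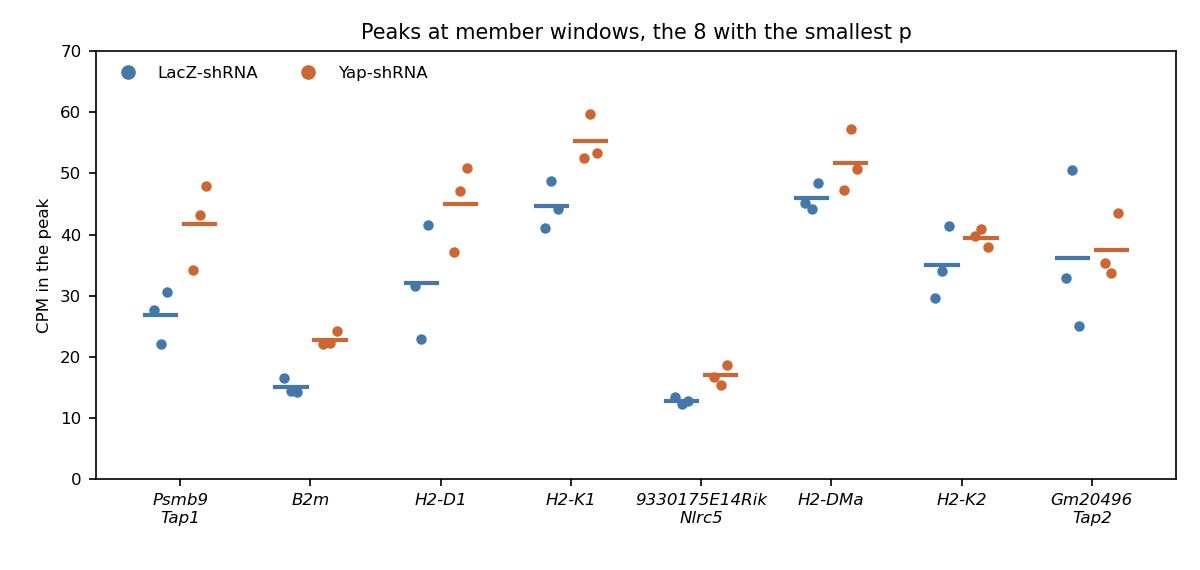
CPM of each replicate in the 8 member peaks with the smallest p, with lines at the group means. Groups are apart at Tap1 with Psmb9, B2m, H2-K1 and Nlrc5, and overlap at H2-D1, H2-DMa, H2-K2 and Tap2.

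**Figure D5:**
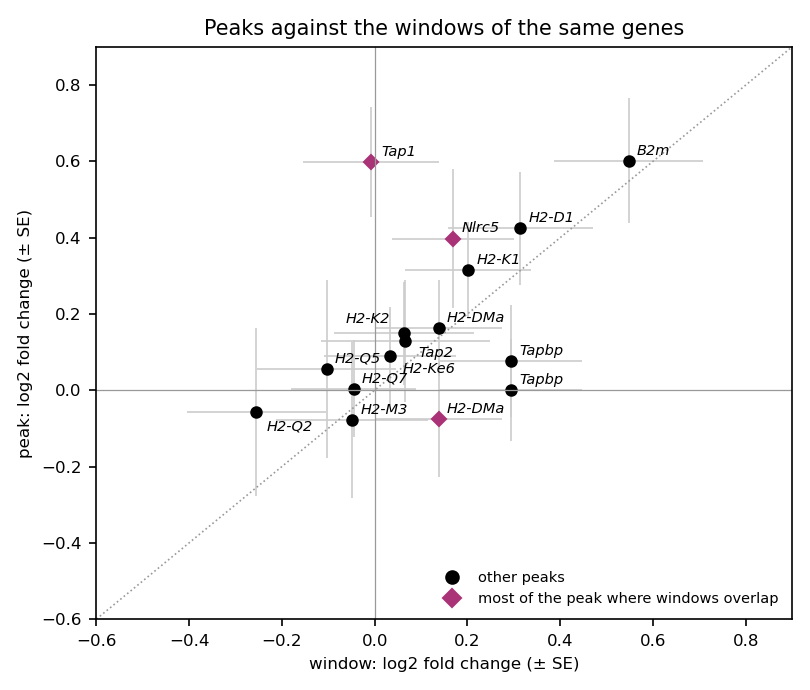
Log2 fold change of each member peak against that of the window of the same gene, with SE (n = 3 per group). Most points lie near the dotted line of equality, but Tap1, whose peak sits where windows overlap, lies far above it, with 0.60 for the peak and -0.01 for the window. The part of the overlap in this gap was not tested.

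Other genes of antigen presentation were read from lists. Among 10 genes of class I peptide supply and loading 0 windows were called. In 1 the unadjusted p was under 0.05 with higher values in Yap-shRNA muscles, as in 1.9% of all windows. Estimates were above 0 in 9, with a median of 0.13, where 47.3% of all windows were above 0. Psmb8, an immunoproteasome subunit, had the smallest p (0.29 ± 0.15, adjusted p = 0.946 by edgeR), and Tapbpl, a tapasin relative, was the 1 below 0 (-0.39 ± 0.29). The 7 peaks at these genes, the shared one included, all had estimates above 0. Among 5 genes of class II peptide supply, the cathepsins and legumain, 1 was above 0, with Ctss at 0.32 ± 0.22 and Ctsd at -0.04 ± 0.14. The 7 genes of the RFX and NF-Y complexes and Creb1, which bind the X and Y boxes, had a median of 0.07, from Rfxank at 0.11 ± 0.16 to Rfxap at -0.14 ± 0.15.

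Of 15 genes that carry interferon and NF-kB signals to the complex, 0 windows were called and 12 had estimates above 0, with a median of 0.10. Over all windows 47.3% were above 0. Irf1, an interferon-induced transcription factor, differed by 0.34 ± 0.15, and the interferon receptor gene Ifnar1 by -0.17 ± 0.14. At the 16 peaks of this list 0 were called, and 12 had estimates above 0 with a median of 0.11. At an unadjusted p under 0.05 by edgeR stood 4 with higher values in Yap-shRNA muscles, against 3.59% of all peaks. With lower values stood 1, a peak at Ifnar1 (-0.31 ± 0.14), against 5.31% of all. The Irf1 peak held 20.8, 24.2 and 30.8 against 33.2, 38.4 and 34.4 CPM (0.45 ± 0.15, adjusted p = 0.203 by edgeR). The reading of peaks for these lists was added after the values of the members had been seen.

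Class I-like genes outside the complex gave a median of -0.02 over 14 windows with 0 called. Mill1 had the smallest p, with 18.8, 10.6 and 16.8 CPM against 9.47, 11.8 and 7.53 CPM (-0.72 ± 0.20, adjusted p = 0.748 by edgeR), and H60b, a ligand of natural killer cells, differed by 0.30 ± 0.17. Class II genes, B2m and Cd74 are high in leukocytes, cells that a sort for PCM1 is meant to leave out. Of 15 leukocyte marker windows 0 were called, and 11 had levels above those of 95% of olfactory receptor windows. Estimates were above 0 in 10, against 47.3% of all windows, and the median was 0.08. Their summed level was 268.8, 299.6 and 273.5 CPM with LacZ-shRNA and 289.9, 293.6 and 303.0 CPM with Yap-shRNA. Csf1r, of macrophages, had the smallest p above 0 (0.32 ± 0.14) and Ptprc, the common leukocyte antigen, below it (-0.30 ± 0.16), at a level of 3.245 CPM per kb inside the range of closed windows. The part of such cells in the values of B2m, Cd74 and class II was not tested, and in pooled nuclei more nuclei of a type and more accessibility per nucleus cannot be told apart.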

How the data were processed

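Chromatin accessibility was measured in 6 samples, 3 LacZ-shRNA and 3 Yap-shRNA. The authors mapped reads to GRCm38 with BWA 0.7.17, discarded duplicate reads (SAMtools 1.8), used MACS 1.4.2-1 for peaks, retained those seen in at least 2 samples and ran featureCounts 1.5.0 for the counts, as named in the methods and the submitters' processing notes. The deposited files hold whole-number counts per peak and per window, not normalized, with rows of mean count under 10 removed. For counts over whole genes the methods name a minimum mapping quality and otherwise the defaults of featureCounts; whether this holds for the windows and peaks is not stated there.

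All 49366 window symbols matched the GENCODE annotation of GRCm38. Counts were compared with edgeR 4.0.16 (R 4.3.3) by the quasi-likelihood test over the whole table, without covariates, scaled by TMM and adjusted by Benjamini-Hochberg with a limit of 0.05. CPM are TMM-normalised. Alternatives used DESeq2 1.42.0, limma 3.58.1 (voom), other scalings, a loess offset (span 0.3), a mean count of at least 50, a threshold of 0.01, a replicate block and leaving out each replicate. On simulated counts with 200 changed features, the test recovered 76% of the windows given a log2 change of 1 and 3% of those given 0.5; for peaks these shares were 68% and 9%. Depth was 3326803 to 10319467 counts per library in windows and 2588520 to 6871176 in peaks.

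Same-numbered replicates of the groups deviated together with correlations of 0.191, -0.121 and 0.0923 in windows and 0.0155, -0.0931 and -0.139 in peaks, so the numbers were not taken to pair samples. No replicates agreed within sampling noise (lowest chi-square per feature 1.95). P-values measure the spread between these pooled samples only.

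Genes named are the classical class I and II genes, the 7 partners, the 4 H2 genes with the smallest p in each direction, the 3 highest and lowest levels per class, the 3 peaks with the smallest p in each direction, and the smallest p in each direction of each further list; 1 gene that this rule names is not reported here. Irf1, the peaks of H2-K1 and Nlrc5, the others described and the members named in counts were chosen after their values were seen. The members and lists were chosen with earlier results of these data known. Peaks were linked to windows that they overlap by at least 1 base. Promoters came from RefSeq, and 17 members had none in that table. Repeats were measured as 75-base words found once in the genome.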

Additional observations from a re-analysis of the deposited data

How the results depend on the processing

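No alternative called a member window: 0 passed under all 14 other fits and at an adjusted p under 0.01. Not all 51 were open to a call in each fit. DESeq2 gave an adjusted p to 18, B2m and Cd74 not among them, and 47 reached the mean count of 50. Over all features DESeq2 gave an adjusted p to 11082 windows and 16502 peaks. Over all windows the number called was 11, and it was 33 by likelihood ratio, 20 by DESeq2, 23 by voom, 33 after the loess offset and 4 to 157 when 1 replicate was left out, with 157 when this was LacZ-shRNA replicate 1. Over all peaks 223 were called, and 378 by likelihood ratio, 116 by DESeq2, 142 after the loess offset, 136 among features whose mean count reached 50, 103 at the limit of 0.01 and 94 to 447 when 1 replicate was left out, with 447 when this was LacZ-shRNA replicate 3. The 1 called member peak became 2 by likelihood ratio and with library size alone, 0 by DESeq2, voom, the loess offset, the minimum of 50 and the limit of 0.01, and 0 to 2 when 1 replicate was left out. With the replicate block it remained 1, with 0 member windows called. Library size alone moved the class I median to 0.0084 and the median of all windows to 0.046, and it turned the estimates of the windows of Tap1 (0.054), H2-Ea-ps (0.022) and Ctsd (0.026) and of the peaks at H2-DMa with Brd2 (0.067), H2-M3 (0.058) and H2-Q2 (0.082). The loess offset turned Ciita (-0.0073) and the H2-DMa peak (0.12). Leaving out 1 replicate moved Ciita between -0.017 and 0.051, Tap1 between -0.11 and 0.097, Tap2 between -0.13 and 0.35, H2-Ea-ps between -0.15 and 0.036, Ctsd between -0.21 and 0.081, Mb between -0.030 and 0.17, Rfxank between -0.0047 and 0.21, and the H2-Q2 peak between -0.21 and 0.11. The causes were not tested. Class levels and the class II median moved by less than the spread between replicates under every alternative run.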

Other observations

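Markers of other cell types were measured in the same windows. Muscle fibre markers had 0 of 10 windows called and a median log2 fold change of -0.09, with Mb, the oxygen store of muscle, at 0.09 ± 0.14 and Ckm, the muscle creatine kinase, at -0.23 ± 0.14. Satellite cell markers ran from Cdh15 at 0.13 ± 0.14 to Pax7 at -0.08 ± 0.16. Among 6 endothelial markers 0 were called and 2 had an unadjusted p under 0.05 with lower values, as had 3.01% of all windows. Kdr, the VEGF receptor, had 20.3, 17.6 and 16.8 CPM with LacZ-shRNA and 12.02, 13.03 and 11.01 CPM with Yap-shRNA, which did not overlap (-0.59 ± 0.17, adjusted p = 0.909 by edgeR), while Pecam1 differed by 0.16 ± 0.14. Among 6 fibroblast markers 0 were called and 2 had an unadjusted p under 0.05 with higher values, as had 1.9% of all windows. Col1a1, the main collagen, had 42.5, 51.6 and 56.4 CPM against 77.1, 57.7 and 62.5 CPM (0.39 ± 0.14), while Pdgfra differed by -0.25 ± 0.15.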
